A study of Homo sapiens with 13 samples.

Results

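Between 20 h and 28 h of BMP4 treatment, human embryonic stem cells were compared over one step of a bulk RNA-seq time series, with 1 library at 20 h and 1 library at 28 h. The step was described over all 61541 human genes of the count table, as CPM, the count of a gene for every 1000000 counts of its library. The cells were RUES2, an established human embryonic stem cell line, and carried a GFP::SMAD4 fusion in every sample, so that no library came from cells without the tag. They were grown in mTeSR1 and treated with 100 ng/mL BMP4, 5 µM IWP2 and RI (ROCK inhibitor). IWP2 is a small molecule that blocks the secretion of Wnt proteins. The same treatment is given in the labels of all 7 time-series libraries, the 2 at 0 h included, and both 0 h libraries were read as cells collected when treatment started. The other times were 4, 12 and 42 h with 1 library each. The whole series held 13 libraries, the other 6 being a dose response at 5 h: untreated cells, and cells given BMP4 and IWP2 with 0, 10, 30, 100 or 300 nM LDN-193189, an inhibitor of BMP type I receptors.

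BMP4 is a secreted ligand whose receptors phosphorylate SMAD1, SMAD5 and SMAD9, which enter the nucleus with SMAD4. In human pluripotent cells kept without Wnt and Nodal signals, sustained BMP leads towards amnion, the epithelium that encloses the embryo. The pluripotent state rests on a small set of transcription factors, POU5F1 (OCT4), SOX2 and NANOG, and on FGF and Nodal signals. Early BMP-induced regulators of amnion include GATA3, GATA2, TFAP2A and MSX2, and ISL1, HAND1 and TBX3 are regulators that follow them.

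The 20 h library held 60593493 counts and the 28 h library 59083013, so that 3 counts, the floor used for detection, equalled 0.0495 and 0.0508 CPM. Mitochondrial genes took 2.73% and 3.11% of the counts, and genes of ribosomal proteins 2.52% and 2.91%. With 1 library a side the step has no replicate of its own. Intervals below are exact 95% intervals of the ratio of 2 counts and cover counting error only. The only replicate pair of the time series was at 0 h, and nothing states that its libraries came from separate cultures.

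A gene was tested where its mean over the 20 h and 28 h libraries was at least 1 CPM, which held for 15744 genes. Called higher or lower means at least 2-fold after adding 0.01 CPM to both values. By this rule 314 genes (1.99%) were higher at 28 h and 235 (1.49%) were lower. The shares of the gene lists below are to be read beside these. A gene under 1 CPM in 1 library could be tested through the other library alone, where it was high. The median log2 change over all tested genes was -0.03. In FPKM, the authors' table scaled by gene length, 331 genes were higher and 380 lower at 28 h, so that the higher genes were 46.6% of those called there and 57.2% of those called from CPM. Between the 2 libraries of 0 h, which share their label, 153 of 15621 genes (0.979%) were at least 2-fold higher in replicate 2 and 151 (0.967%) lower. With a mean of at least 10 CPM, 117 of 10234 genes (1.14%) were higher and 67 (0.655%) lower at 28 h, against 62 (0.616%) and 17 (0.169%) of 10066 genes in the 0 h pair. From 4 h to 12 h the counts were 260 higher (1.59%) and 362 lower (2.22%) of 16310 genes, and from 12 h to 20 h 426 higher (2.67%) and 260 lower (1.63%) of 15934 genes. The share of called genes in the step was therefore above that of the 0 h pair and of the same order as in the steps before it. The SD of the log2 ratio over tested genes differed less, at 0.474 in the step and 0.450 in the 0 h pair. With a mean of at least 10 CPM it was 0.396 and 0.372.

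A test across all genes was fitted to the 7 time-series libraries with edgeR's quasi-likelihood method, in which the lone libraries of 20 h and 28 h are assumed to vary as the 0 h pair does. With Benjamini-Hochberg adjustment at 0.05 it called 139 genes higher (0.883%) and 38 lower (0.241%). All of them were at least 2-fold changed, so that 44.3% of the 314 higher genes and 16.2% of the 235 lower genes passed. In the text, rose and fell are used of genes past this test, and higher and lower of genes past 2-fold. DESeq2 called 81 higher and 18 lower from the same libraries. Among the higher genes 89.5% were protein-coding and 8.92% annotated as lncRNA, and among the lower genes 71.1% and 20.4%. Over all tested genes these shares were 86.1% and 9.41%, so that the higher genes were near them.

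**Figure D1:**
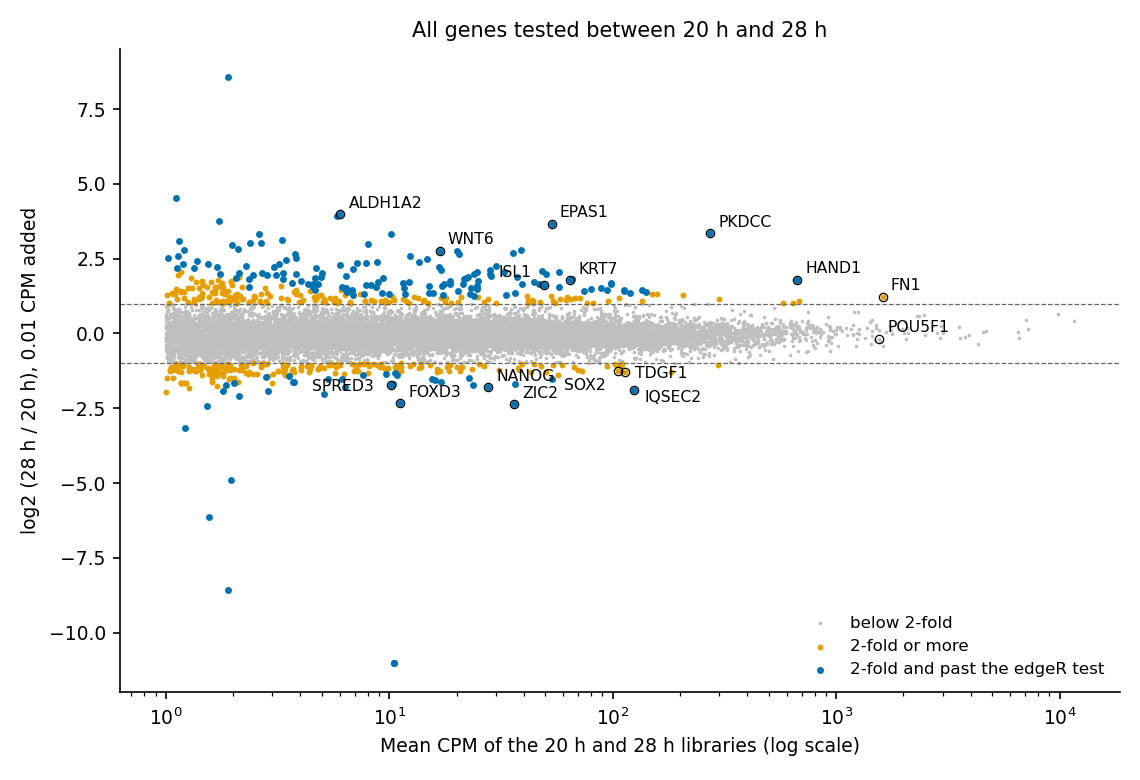
Each point is 1 of the 15744 tested genes, with the mean CPM of the 20 h and 28 h libraries on a log axis across and the log2 ratio of 28 h to 20 h upward; dashed lines mark 2-fold. The 139 and 38 genes past the edgeR test (blue) lie outside the 2-fold lines, HAND1 and PKDCC stand at high level on the upper side, and POU5F1 lies near 0.

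The 3 core pluripotency factors did not move as a block. NANOG, a homeodomain factor of the pluripotent state (chr12:7787794-7799146 on GRCh38), was at 146 and 116 CPM in the 0 h pair, and at 148, 97.5, 43, 12.3 and 1.08 CPM in the libraries of 4, 12, 20, 28 and 42 h. Its 28 h value was below every earlier library and its 42 h value lower again. NANOG fell 3.48-fold over the step (log2 -1.8, interval -1.92 to -1.68, edgeR adjusted p = 0.00166).

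SOX2, the HMG-box partner of POU5F1 (chr3:181711925-181714436), was at 389 and 375 CPM in the 0 h pair, and at 242, 222, 149, 62.7 and 11.6 CPM in the libraries of 4, 12, 20, 28 and 42 h. The level was lower at each successive time, and no later library overlapped the 0 h pair. Over the step SOX2 was 2.38-fold lower (log2 -1.25, interval -1.30 to -1.19), but it did not pass the edgeR test (adjusted p = 0.127). POU5F1 itself (chr6:31164337-31180731) was at 1003 and 1721 CPM in the 0 h pair, and at 1342, 1527, 1642, 1457 and 1145 CPM in the libraries of 4, 12, 20, 28 and 42 h. Its 0 h libraries differed from each other by more than the 20 h and 28 h libraries did. The POU5F1 difference was log2 -0.17 (interval -0.19 to -0.16, edgeR adjusted p = 1.0), so that a description of the step as a steep fall of core pluripotency genes holds for NANOG and, by fold, for SOX2, and not for POU5F1 mRNA. On the per-length scale of FPKM, POU5F1 stood at 1765 at 20 h and 1533 at 28 h, SOX2 at 66.4 and 27.8, and NANOG at 15 and 4.7, so that POU5F1 was the highest of the 3 at both times. POU5F1 and NANOG have processed copies elsewhere in the genome with which reads can be shared. In bulk RNA, fewer cells with a transcript and less of it per cell cannot be told apart.

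The wider list of pluripotency-linked genes leaned to lower values. Like all the gene lists, it was chosen with earlier results of these data known, so that its shares are a description only. Of 37 members 34 were tested, 0 were higher, 8 (23.5%) were lower, against 1.49% of all tested genes, and 3 passed the edgeR test (ZIC2, FOXD3 and FGF4); the list median was log2 -0.64 against -0.03 for all tested genes, and 30 of the 34 lay below 0. The largest differences were in transcription factors. ZIC2, a zinc finger factor (chr13:99981784-99986765), was at 247 and 215 CPM in the 0 h pair, and at 123, 119, 60.6, 11.8 and 1.13 CPM in the libraries of 4, 12, 20, 28 and 42 h. Its level had been about flat from 4 h to 12 h before it went down. ZIC2 fell 5.13-fold in the step (log2 -2.36, interval -2.48 to -2.24, edgeR adjusted p = 5.55e-06). FOXD3, a forkhead factor of pluripotent cells and neural crest, was at 58 and 79.5 CPM in the 0 h pair, and at 12, 28.6, 18.6, 3.69 and 0.49 CPM in the libraries of 4, 12, 20, 28 and 42 h, and fell 5.05-fold (log2 -2.33, edgeR adjusted p = 1.53e-06). The dip at 4 h and partial recovery at 12 h preceded the lower values of 28 h and 42 h.

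Other members carried the same sign with smaller size. TDGF1, the Nodal co-receptor CRIPTO, went from 160.3 to 65.6 CPM (log2 -1.29), USP44, a histone H2B deubiquitinase, from 16 to 6.67 (log2 -1.26) and LCK, a Src-family kinase, from 13.5 to 6.13 (log2 -1.14); none of these passed the edgeR test (adjusted p = 0.113, 0.123 and 0.144). SALL2, ZSCAN10 and THY1 stopped just short of 2-fold, at log2 -0.98, -0.95 and -0.97. The genes for the RNA-binding proteins LIN28A (log2 -0.15) and LIN28B (log2 0.07) and for ZFP42 (log2 -0.03) hardly differed. EPCAM, an epithelial adhesion molecule that pluripotent cells share with many epithelia, was on the upper side, at 70.4 CPM at 20 h and 133 at 28 h (log2 0.92, edgeR adjusted p = 0.478). DPPA2, OTX2 and LINC-ROR were under 1 CPM on average and were not tested.

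**Figure D2:**
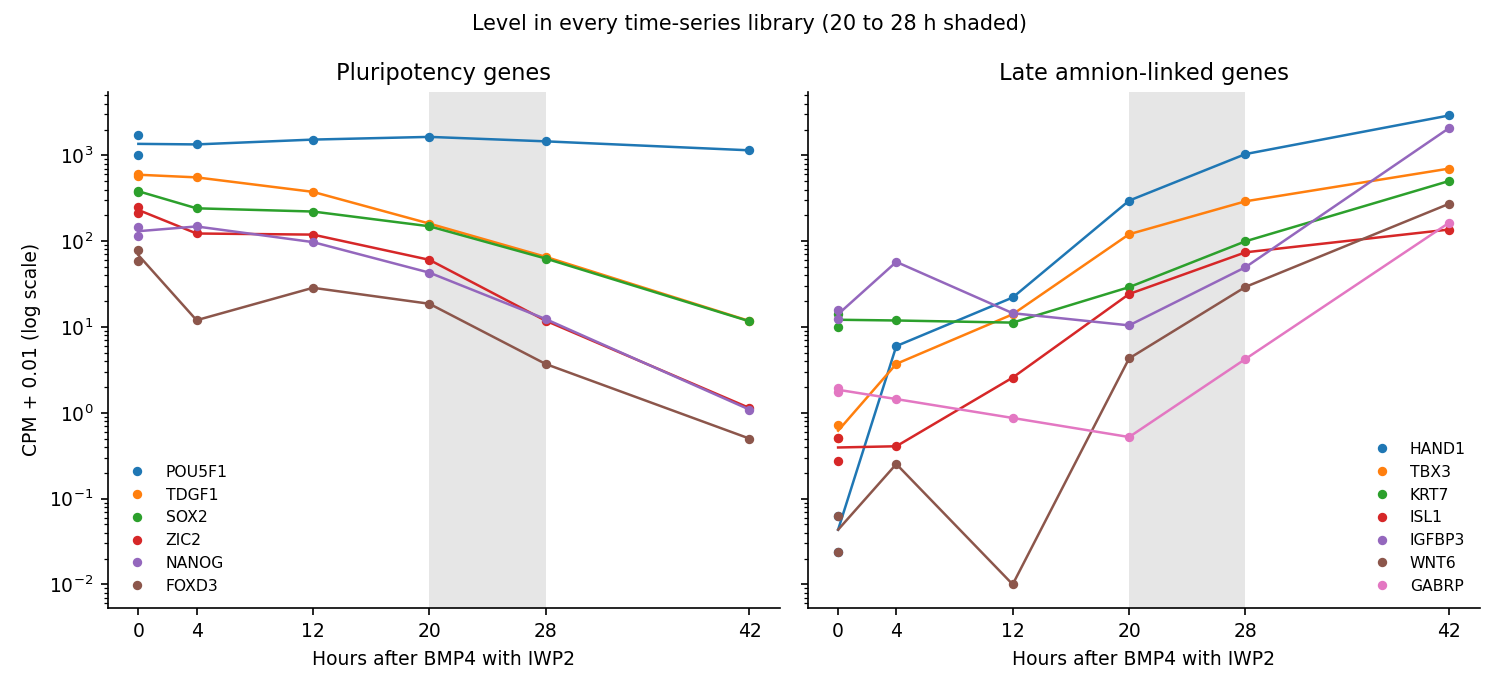
CPM plus 0.01 on a log axis against hours for 6 pluripotency genes (left) and 7 late amnion-linked genes (right); points are libraries, lines join the mean of the 0 h pair to the later single libraries, and the step from 20 h to 28 h is shaded. NANOG, ZIC2 and FOXD3 bend down inside the shaded step while POU5F1 stays level, and all 7 genes on the right are higher at 28 h than at 20 h.

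The late amnion-linked genes were mostly higher. This list and the step itself were chosen with earlier results of these data known, so that the shares are a description only. GABRP was under 1 CPM at 20 h and was tested only through its 28 h level. Of 26 listed members 19 were tested, 13 of these (68.4%) were at least 2-fold higher at 28 h, against 1.99% of all tested genes, 0 were lower and 9 passed the edgeR test, against 0.883%. The list median was log2 1.27, and the summed level of the list went from 1220 to 2863 CPM. HAND1, a basic helix-loop-helix factor of extraembryonic mesoderm and amnion (chr5:154474972-154478227), was at 0.0527 and 0.014 CPM in the 0 h pair, and at 5.98, 22.1, 297, 1036 and 2919 CPM in the libraries of 4, 12, 20, 28 and 42 h. Each library from 4 h on was above the one before it. HAND1 rose 3.49-fold (log2 1.8, interval 1.78 to 1.83, edgeR adjusted p = 0.00193).

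ISL1, a LIM-homeodomain factor of the amnion (chr5:51383448-51394730), was at 0.263 and 0.505 CPM in the 0 h pair, and at 0.397, 2.56, 24.2, 74.1 and 137 CPM in the libraries of 4, 12, 20, 28 and 42 h. No library before 20 h reached 3 CPM. Its step was 3.06-fold (log2 1.61, interval 1.53 to 1.70, edgeR adjusted p = 0.00269). TBX3, a T-box repressor, was at 120.5 CPM at 20 h and 292 at 28 h (log2 1.27, edgeR adjusted p = 0.0754), higher by fold but short of the test. For these 3 regulators the step before was larger in log2, at 3.75 for HAND1, 3.24 for ISL1 and 3.1 for TBX3 from 12 h to 20 h, which shares the 20 h library.

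Another set of members started late, with 12 h or 20 h at or under the 0 h level. IGFBP3, a secreted binding protein of insulin-like growth factors, was at 12.5 and 15.7 CPM in the 0 h pair, and at 57.3, 14.5, 10.4, 49.7 and 2085 CPM in the libraries of 4, 12, 20, 28 and 42 h. Its early peak at 4 h had gone by 20 h. IGFBP3 rose 4.77-fold in the step (log2 2.25, edgeR adjusted p = 2.02e-05). GABRP, the pi subunit of the GABA-A receptor and a marker of amnion, was at 1.95 and 1.74 CPM in the 0 h pair, and at 1.43, 0.86, 0.512, 4.23 and 164 CPM in the libraries of 4, 12, 20, 28 and 42 h, and rose 8.27-fold from its lowest library (log2 3.02, interval 2.51 to 3.64, edgeR adjusted p = 9.11e-09). TNC, the matrix protein tenascin-C, was at 6.88, 3.98, 9.82 and 88.9 CPM from 12 h to 42 h and also passed (log2 1.3, edgeR adjusted p = 0.0358). In all 3 genes the 42 h library was far above the 28 h one.

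The ligand WNT6 was at 0.0527 and 0.014 CPM in the 0 h pair, and at 0.243, 0, 4.29, 29.3 and 273 CPM in the libraries of 4, 12, 20, 28 and 42 h, so that the libraries up to 12 h held few or no counts. It rose 6.83-fold (log2 2.77, edgeR adjusted p = 9.11e-09). The keratin KRT7, typical of simple epithelia, rose from 29.1 to 99.7 CPM (log2 1.78, edgeR adjusted p = 0.00118). ANXA3, an annexin, rose from 20.9 to 68.2 CPM (log2 1.71, edgeR adjusted p = 0.00123), and the secreted protease gene ADAMTS18 from 4.14 to 13.7 (log2 1.72, edgeR adjusted p = 6.15e-04). CLDN10, a tight junction claudin, was at its highest in the 28 h library, with 383 CPM at 20 h, 773 at 28 h and 249 at 42 h, but at log2 1.01 it did not pass the test (edgeR adjusted p = 0.323).

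IGFBP5 (log2 1.04) and the T-box gene TBX20 (log2 1.24) were higher by fold only, and POSTN at log2 0.98 stopped just short. The members that differed less were the ligand BMP4 (264 and 324 CPM, log2 0.29), BMP2 (log2 0.48), the nuclear receptor NR2F2 (log2 0.57), the Notch-type repressor HEY2 (log2 0.45) and GATA6 (log2 -0.25), of which GATA6 alone lay below 0. The 7 untested members, VTCN1, MUC16, TFAP2B, CDH10, ITGB6, HOXD9 and KRT23, averaged under 1 CPM, at no more than 1.37 CPM in either library. In that order they stood at log2 0.68, -1.24, 1.46, 0.36, 1.38, -1.41 and 3.32, so that MUC16 and HOXD9 also lay below 0. With 1 CPM added they were all under 2-fold, from -0.59 for MUC16 to 0.46 for TFAP2B.

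Among early BMP-induced factors some were still higher at 28 h and others near level. Of 18 members 17 were tested, 6 (35.3%) were higher, against 1.99% of all tested genes, 0 were lower and 4 passed the edgeR test. The median was log2 0.43, and 16 of the 17 lay above 0. GATA3 was at 0.158 and 0.196 CPM in the 0 h pair, and at 45.6, 172, 270.3, 296 and 322 CPM in the libraries of 4, 12, 20, 28 and 42 h, so that its steep part lay before 20 h and the step was log2 0.13. GATA2 (log2 0.34), TFAP2A (log2 0.16) and MSX2 (log2 0.26) differed as little. TFAP2C, the AP-2 gamma gene, was at 129 and 237 CPM (log2 0.87, edgeR adjusted p = 0.544), with its highest library at 28 h.

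The members that did rise were later ones. MSX1, a homeobox repressor, was at 0.184 and 0.154 CPM in the 0 h pair, and at 0.199, 0.645, 3.5, 21.2 and 108 CPM in the libraries of 4, 12, 20, 28 and 42 h, and rose 6.05-fold (log2 2.59, edgeR adjusted p = 9.11e-09). CDX2, a caudal homeobox factor of trophectoderm, hindgut and amnion, was at 1.1, 1.47, 4.31, 22.7 and 25.9 CPM from 4 h to 42 h, and rose 5.28-fold (log2 2.4, edgeR adjusted p = 2.84e-07). Almost all of its later level was thus present at 28 h. GRHL1, a grainyhead epithelial factor, rose from 11.3 to 38.4 CPM (log2 1.76, edgeR adjusted p = 3.27e-04) and the homeobox gene DLX3 from 12 to 34.3 (log2 1.51, edgeR adjusted p = 0.00344). KLF5 (log2 1.17) and TBX2 (log2 1.06) were higher by fold only. GRHL1 moved less in FPKM, the table scaled by length, at log2 1.27.

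The promoters of 5 of these genes are shown because each holds letters that a family of factors in this system is known to bind. They were read from RefSeq promoters on GRCh38.p14, 250 bases before to 50 after a gene's start, and the capitals mark the searched letters. In NANOG they are ACAATG, the reverse complement of CATTGT, the core letters of SOX factors; in ISL1, SLC8A1 and CDX2 they are AGATAA or its reverse complement TTATCT, for GATA factors; in CDX2 also ATGCAAAT, the octamer of POU factors; and in MEIS1 CATTGT.
NANOG, chr12:7789250-7789349, plus strand: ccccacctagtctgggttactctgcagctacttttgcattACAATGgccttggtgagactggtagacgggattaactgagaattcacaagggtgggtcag
ISL1, chr5:51383377-51383476, plus strand: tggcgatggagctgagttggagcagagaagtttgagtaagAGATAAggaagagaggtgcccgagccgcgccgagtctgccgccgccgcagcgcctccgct
CDX2, chr13:27969375-27969474, minus strand: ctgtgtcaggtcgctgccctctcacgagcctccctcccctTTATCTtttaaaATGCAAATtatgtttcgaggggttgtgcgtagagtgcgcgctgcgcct
MEIS1, chr2:66435034-66435133, plus strand: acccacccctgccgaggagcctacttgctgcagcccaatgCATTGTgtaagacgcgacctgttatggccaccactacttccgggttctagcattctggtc
SLC8A1, chr2:40512446-40512545, minus strand: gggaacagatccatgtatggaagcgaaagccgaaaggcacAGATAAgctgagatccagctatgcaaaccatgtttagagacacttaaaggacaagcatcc

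The same letters were counted on both strands of all promoters of the table, with the first entry used where a gene had several. Promoters were found for 202 of the 314 higher genes, 124 of the 235 lower genes and 11333 of the 15737 symbols among the tested genes. AGATAA stood in 21 higher genes (10.4%) and 6 lower genes (4.84%), against 4.77% of tested genes and 10.5% of all 27305 promoters. CATTGT stood in 19 (9.41%) and 10 (8.06%), against 5.99% and 11%. The octamer stood in 3 and 4 genes (1.49% and 3.23%), against 1.42% and 1.80%. The AP-2 letters GCCNNNGGC stood in 38.6% of higher and 34.7% of lower genes, against 32.8% and 23.0%, and the homeobox letters TAATTA in 1.49% and 0 of 124, against 1.96% and 4.98%. These shares describe letters in a short window, were not tested, and do not show binding.

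Genes of the FGF and ERK pathway, through which FGF2 in the medium supports pluripotency, were on the lower side. Of 22 members 20 were tested, 0 were higher, 5 (25%) were lower, against 1.49% of all tested genes, and 3 passed the edgeR test, against 0.241%. The median was log2 -0.56, with 19 of the 20 below 0. FGF4, 1 of the 3, was also in the pluripotency list, and the other lower members were feedback inhibitors. SPRED3, an inhibitor of RAS activation, was at 14.1 and 11.2 CPM in the 0 h pair, and at 10, 13.2, 15.6, 4.74 and 2.71 CPM in the libraries of 4, 12, 20, 28 and 42 h. SPRED3 had not moved much before 20 h, and fell 3.3-fold in the step (log2 -1.72, edgeR adjusted p = 0.00115). SPRY1, a Sprouty inhibitor, fell from 11.1 to 4.21 CPM (log2 -1.39, edgeR adjusted p = 0.0249).

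SPRY4, another Sprouty gene, was at 362, 399, 191 and 224 CPM from 12 h to 42 h, with the 28 h library the lower (log2 -1.06, edgeR adjusted p = 0.336). DUSP4, an ERK phosphatase, peaked at 32.6 CPM at 20 h and stood at 14.4 at 28 h (log2 -1.17, edgeR adjusted p = 0.0992). The ligand FGF4 fell from 2.87 to 0.863 CPM (log2 -1.72, interval -2.21 to -1.28, edgeR adjusted p = 0.0284), a low level at both times. The receptor gene FGFR1 (905 and 598 CPM, log2 -0.6) and the ETS factors ETV4 (log2 -0.66) and ETV5 (log2 -0.52) differed by less than 2-fold. DUSP6, an ERK phosphatase too, was at log2 -0.59 in the step and was at its highest library at 42 h, with 121 CPM.

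In the Nodal pathway 8 of 15 members were tested and 4 (50%) were lower, against 1.49% of all tested genes, 0 were higher, and the median was log2 -0.91. None passed the edgeR test. They were the co-receptors TDGF1, given above, and CFC1 (2.84 and 0.982 CPM, log2 -1.52), the ligand gene GDF3 (11.9 and 5.79 CPM, log2 -1.04) and INHBB, an activin subunit (2.24 and 0.88 CPM, log2 -1.34). CFC1 has a near-identical copy, so that its own level is uncertain. CFC1 and INHBB were under 1 CPM at 28 h and were tested only through their 20 h level. With 1 CPM added, CFC1, INHBB and GDF3 were at log2 -0.95, -0.79 and -0.93, under 2-fold. TDGF1, at -1.28, alone of the 4 stayed past 2-fold. The ligands NODAL, LEFTY1 and LEFTY2 averaged under 1 CPM and were not tested. The list of Nodal genes overlaps that of pluripotency genes in TDGF1 and GDF3.

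Of 20 BMP target and feedback genes 1 (5%) was higher, against 1.99% of all tested genes, and 0 were lower, against 1.49%. The median was log2 -0.03, equal to that of all tested genes, with 9 members above 0 and 11 below. The higher gene was BMPER, a secreted BMP-binding protein, at 2.33 and 7.26 CPM (log2 1.64, edgeR adjusted p = 0.0244). ID3, a direct BMP target, was at 29 and 33.5 CPM in the 0 h pair, and at 253, 384, 491, 319 and 191 CPM in the libraries of 4, 12, 20, 28 and 42 h, with its peak at 20 h and log2 -0.62 in the step (edgeR adjusted p = 1.0). ATOH8, a basic helix-loop-helix factor, stopped just short of the lower threshold (3.25 and 1.62 CPM, log2 -1.0) and was past it in FPKM (log2 -1.31), while FSTL1, a secreted follistatin-like protein, was at log2 0.55. Among 15 tested ligands, receptors and SMADs the ligand GDF6 alone (6.67%) passed 2-fold, against 1.99% of all tested genes. GDF6 rose from 1.06 to 5.35 CPM (log2 2.33), and the ligands BMP6 and BMP7 were at log2 -0.83 and -0.51.

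The Wnt list was measured under a block of Wnt secretion, and its median was log2 -0.27. Of 19 tested members 2 (10.5%) were higher and 1 (5.26%) was lower, against 1.99% and 1.49% of all tested genes. WNT6 was given above. RNF43, a ubiquitin ligase that removes Wnt receptors, rose from 3.32 to 9.48 CPM (log2 1.51, edgeR adjusted p = 0.00799), and WNT3 was lower (12.5 and 5.7 CPM, log2 -1.14, edgeR adjusted p = 0.205). In the Notch list the ligand DLL1 was the 1 higher gene of 13, at 6.11 and 6.71 CPM in the 0 h pair, and at 2.01, 2.72, 9.54, 39.9 and 48.2 CPM in the libraries of 4, 12, 20, 28 and 42 h, a 4.19-fold rise (log2 2.06, edgeR adjusted p = 7.48e-06). The 1 higher gene of 13 was 7.69% of the tested Notch list, against 1.99% of all tested genes. The receptor NOTCH1 (log2 -0.62) and LFNG, a glycosyltransferase that modifies Notch (log2 -0.68), were on the other side of 0, and HEYL was at log2 0.59. WNT5B, a noncanonical Wnt ligand, stopped just short of 2-fold (log2 0.96).

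Of 18 tested keratins and junction genes of simple epithelia 2 (11.1%), KRT7 and CLDN10, were at least 2-fold higher, against 1.99% of all tested genes, and KRT7 passed the edgeR test. The median was log2 0.45, with 17 of the 18 above 0. KRT19 was at 378 and 676 CPM (log2 0.84, edgeR adjusted p = 0.70). Matrix and mesenchymal genes had no common direction (median log2 -0.07 over 17), but FN1, the fibronectin gene, was at 123 and 95 CPM in the 0 h pair, and at 109.5, 160.1, 964, 2264 and 5617 CPM in the libraries of 4, 12, 20, 28 and 42 h. FN1 was 2.35-fold higher (log2 1.23), short of the edgeR test (adjusted p = 0.143). Among 17 integrins and laminins 0 passed 2-fold, with ITGB3 at log2 0.7, ITGB1 at 0.48, LAMB1 at 0.55 and ITGB8 at -0.64. TWIST1, a mesenchymal regulator, was at log2 0.82.

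**Figure D3:**
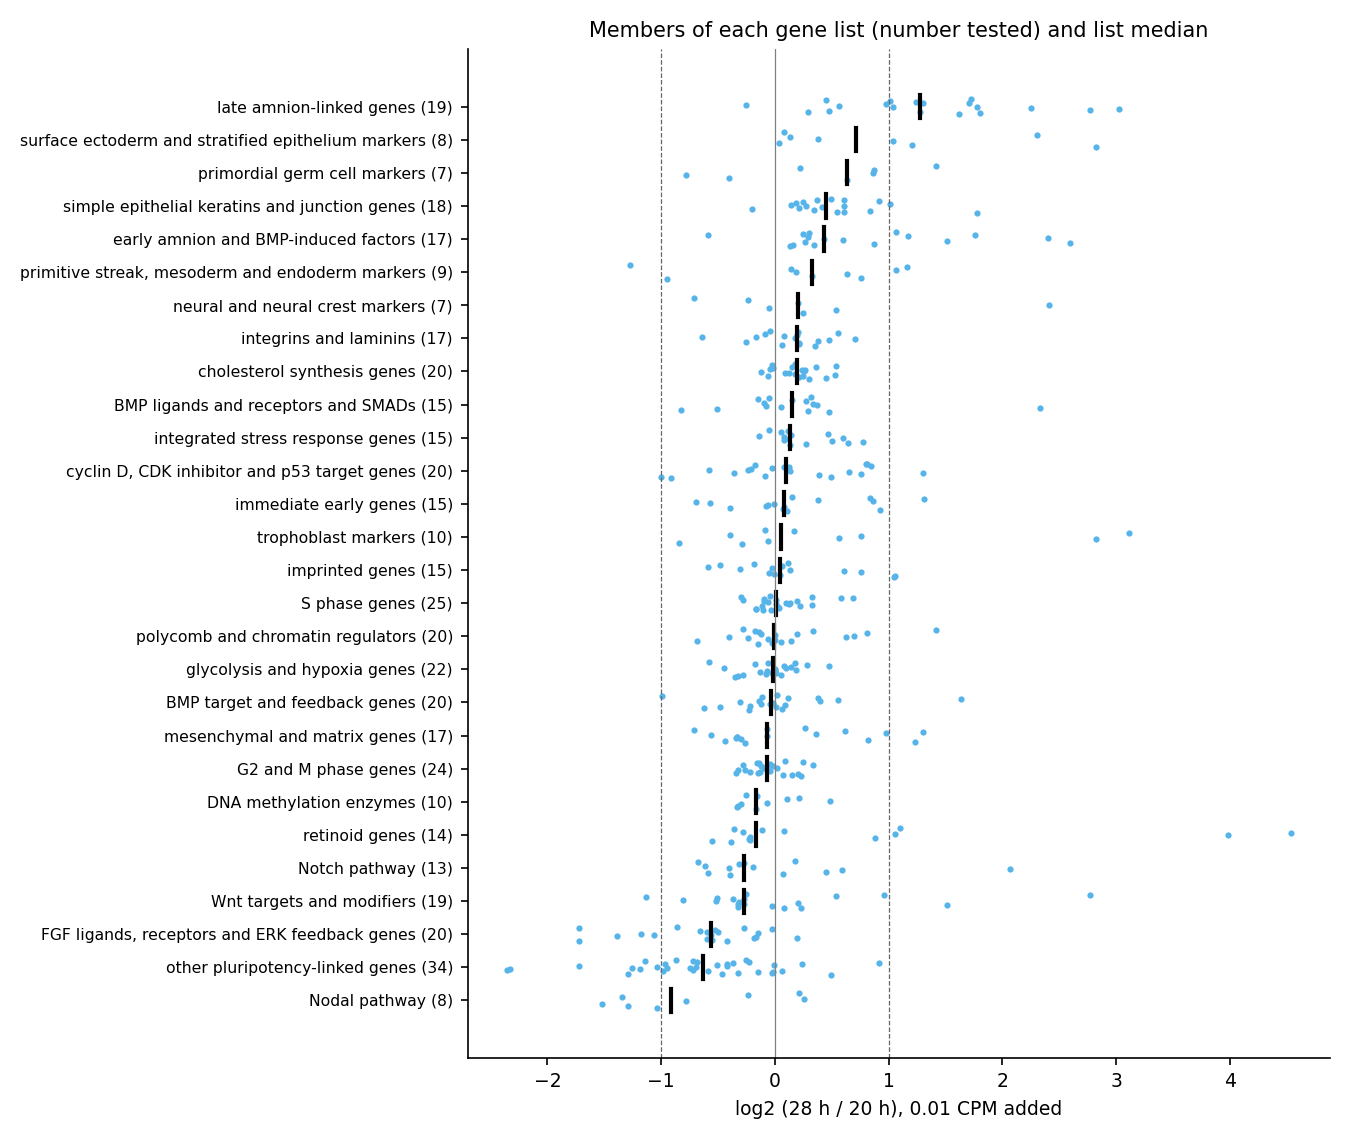
Each point is a tested member of a gene list, placed by its log2 ratio of 28 h to 20 h, and the black bar is the list median; the number in brackets is the number tested, and the lists of core factors and HOX genes, with under 7 tested, are left out. Late amnion-linked genes stand highest (median 1.27), and the Nodal, pluripotency and FGF lists lowest (-0.91, -0.64 and -0.56).

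Regulators of chromatin and of DNA methylation were near level. Of 20 chromatin regulators 1 (5.0%) was higher, against 1.99% of all tested genes. It was SMARCA2, the BRM ATPase of SWI/SNF complexes, which rose from 40.5 to 108 CPM (log2 1.42). JARID2, a PRC2 component abundant in stem cells, was at log2 -0.69, the histone demethylase KDM6B at log2 0.81 and the PRC1 component BMI1 at log2 0.69. The DNA methyltransferase genes DNMT3A and DNMT3B were at log2 -0.34 and -0.33, TET2 at 0.48 and UHRF1 at -0.3, and 0 of 10 genes of that list passed 2-fold.

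Cell cycle genes did not move as lists. Of 25 S phase genes and 24 G2 and M phase genes 0 passed 2-fold in either direction, with medians of log2 0.01 and -0.07 and a range over both lists from -0.34 (MKI67) to 0.69 (CCNE2). The S phase genes SLBP, RFC3 and CDC45 were at log2 0.58, 0.32 and 0.32, and the mitotic genes PLK1, CDC20 and CDC25C at -0.32, -0.28 and 0.34. The D cyclins lay below 0, with CCND1 at 143 and 76.1 CPM (log2 -0.91) and CCND2 at 254 and 127 CPM, the closest gene to the lower threshold from outside (log2 -0.9999). On the upper side the ephrin receptor gene EPHB3 was the closest from outside, at log2 0.9998, while LCMT1-AS2 at 1.005 and ONECUT1 at -1.004 lay just inside the 2 thresholds. The lists of glycolysis and hypoxia (22 tested), cholesterol synthesis (20) and integrated stress response (15) had 0 genes past 2-fold and medians of log2 -0.01, 0.19 and 0.13. Among their largest differences were those in the hormone gene ADM, HK1, ENO2 and the glucose transporter gene SLC2A1 (log2 -0.58, -0.35, -0.45 and 0.48), in the sterol genes INSIG1, IDI1 and SC5D (0.53, 0.53 and 0.36), and in TRIB3, DDIT4, CHAC1 and ASNS (0.78, 0.64, 0.6 and 0.5).

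Lists of markers of other cell types held both undetected and well-expressed genes. Higher genes were 20% of tested trophoblast, 50% of surface ectoderm and 22.2% of streak, mesoderm and endoderm markers, against 1.99% of all tested genes. They were 14.3% of neural and 14.3% of germ cell markers. Lower genes were 11.1% of the streak, mesoderm and endoderm list and 0% of the other lists here, against 1.49%. Of 24 trophoblast markers 10 were tested and 2 were higher: PPARG, a nuclear receptor (0.677 and 5.94 CPM, log2 3.12, edgeR adjusted p = 3.94e-10), and TP63, which is also listed for stratified epithelium (0.512 and 3.69 CPM, log2 2.83, edgeR adjusted p = 5.13e-08). SDC1, a syndecan of syncytiotrophoblast, was at 31.7 and 17.7 CPM (log2 -0.84) and CCR7 at 1.14 and 1.93 CPM (log2 0.76). The defining placental genes CGA, GCM1, ELF5, PSG1 and SIGLEC6 stood at no more than 0.322 CPM in either library. Of 14 surface ectoderm markers 4 of 8 tested were higher, all at under 4 CPM: TP63, KRT17 (0.396 and 2.0 CPM, edgeR adjusted p = 0.0123), KRT15 (log2 1.21) and DSC3 (log2 1.04), while KRT5 and KRT14 had no counts. Of 20 streak, mesoderm and endoderm markers 9 were tested, with APLNR and PDGFRA higher by fold and KDR lower (70.9 and 29.2 CPM, log2 -1.28), EOMES stood at 3.52 and 1.81 CPM (log2 -0.95) and TBXT at 0.033 and 0.203 CPM. With 1 CPM added, KRT15, DSC3, APLNR and PDGFRA were at log2 0.71, 0.58, 0.73 and 0.78, under 2-fold, and KDR at -1.25. Of 17 neural markers 7 were tested and FEZF2 rose from 0.429 to 2.32 CPM (log2 2.41, edgeR adjusted p = 0.00986), with PAX6 and SOX1 under 1 CPM. NES, at 273 and 323 CPM (log2 0.24), made up most of the neural sum, and SIX3 and DCX were at log2 0.54 and -0.71. PPARG, TP63, KRT17 and FEZF2 were under 1 CPM at 20 h and were tested only through their 28 h level. With 1 CPM added, these genes were at log2 2.05, 1.63, 1.10 and 1.22. Of 12 germ cell markers 7 were tested and ARID5B rose (11.1 and 29.6 CPM, log2 1.41, edgeR adjusted p = 0.00924), with the receptor gene KIT at 35.7 and 64.7 CPM (log2 0.86) and DND1 at log2 -0.78. The summed level of the whole lists at 20 h and 28 h was 234 and 204 CPM for trophoblast, 66.2 and 86.3 for surface ectoderm, 96.6 and 60.1 for streak, mesoderm and endoderm, 475 and 498 for neural and 191 and 345 for germ cell markers. Their part in the changes of the other lists was not tested.

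Other lists held 1 or 2 genes past 2-fold. These were 6.67% of tested immediate early, 5.0% of cyclin and inhibitor and 13.3% of imprinted genes, against 1.99% of all tested genes. CDKN2B and HOXB9 were under 1 CPM at 20 h and were tested only through their 28 h level. KLF2 was the 1 of 15 immediate early genes past 2-fold (2.18 and 5.43 CPM), CDKN2B the 1 of 20 cyclin and inhibitor genes (0.578 and 1.44 CPM), and H19 and IGF2 the 2 of 15 imprinted genes (log2 1.05 and 1.05); none of these passed the edgeR test. FOSB, ATF3 and KLF6 of the immediate early list were at log2 0.92, 0.86 and 0.84, the p53 target TP53INP1 at 0.84, and the imprinted genes CDKN1C and PHLDA2 at 0.76 and 0.6. Of 29 HOX genes only HOXB9 averaged 1 CPM, at 0.842 and 2.74 CPM (log2 1.69).

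A retinoid gene gave the largest log2 rise among genes with at least 10 CPM at 28 h, an order that holds with 0.01 CPM added. With 1 CPM added ALDH1A2 stood at log2 2.86, below EPAS1 at 3.51 and PKDCC at 3.32. ALDH1A2, which makes retinoic acid from retinal (chr15:57953424-58497866), was at 0.079 and 0.168 CPM in the 0 h pair, and at 0.154, 0.179, 0.71, 11.4 and 121 CPM in the libraries of 4, 12, 20, 28 and 42 h. ALDH1A2 was under 1 CPM in every library before 28 h, and rose 16-fold (log2 3.98, interval 3.56 to 4.48, edgeR adjusted p = 1.18e-16). CYP26A1, the enzyme that clears retinoic acid, was at 0.215, 0.0825, 2.13 and 117 CPM from 12 h to 42 h; it rose in the step (log2 4.53, interval 3.43 to 6.34, edgeR adjusted p = 8.72e-12) from a level near the floor. ALDH1A3 (log2 1.06) and LRAT (log2 1.1) were higher by fold only, and ALDH1A3 went the other way in FPKM (log2 -0.36). Of 14 tested members 4 (28.6%) were higher, against 1.99% of all tested genes, and 0 were lower. The list median was log2 -0.17, with 8 of the 14 below 0. ALDH1A2 and CYP26A1 were under 1 CPM at 20 h and were tested only through their 28 h level. With 1 CPM added, ALDH1A3 and LRAT were at log2 0.57 and 0.69, under 2-fold.

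The 15 largest rises among genes with at least 10 CPM in the higher library all passed the edgeR test. They were chosen by their size in this step, so that the values are a description. EPAS1, a hypoxia-inducible factor subunit (chr2:46293667-46386697), was at 3.06 and 2.47 CPM in the 0 h pair, and at 1.88, 2.78, 7.76, 98.8 and 1917 CPM in the libraries of 4, 12, 20, 28 and 42 h, a 12.7-fold rise in the step. PKDCC, a secreted tyrosine kinase (chr2:42048021-42058517), was at 75.5 and 98.6 CPM in the 0 h pair, and at 100.4, 18.9, 48.9, 498 and 1388 CPM in the libraries of 4, 12, 20, 28 and 42 h. PKDCC was thus lowest at 12 h, still below both 0 h libraries at 20 h, and 10.2-fold above its 20 h level 8 h later.

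MEIS1, a TALE homeobox factor that pairs with HOX and PBX proteins, went from 0.71 to 11 CPM (log2 3.93, and 2.73 in FPKM). Being under 1 CPM at 20 h, MEIS1 was tested only through its 28 h level, and with 1 CPM added it stood at log2 2.81. CEBPA, a basic leucine zipper factor, was at 9.75 and 67.9 CPM (log2 2.8), and LRP2, the endocytic receptor megalin, at 1.85 and 18.4 (log2 3.31). ACKR3, a scavenging chemokine receptor, was at 5.17 and 34.8 CPM (log2 2.75).

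Among them were also matrix genes and transporters. The aggrecanase ADAMTS9 (log2 3.0) and the hyaluronan link protein gene HAPLN1 (9.49 and 61.8 CPM, log2 2.7) belong to the first kind, and the sodium-calcium exchanger SLC8A1 (5.61 and 35.3 CPM, log2 2.65) and the zinc transporter SLC30A2 (log2 2.39) to the second. AFAP1L2, an adaptor protein gene, was at 4.49 and 25 CPM (log2 2.47). WNT6, MSX1 and CDX2 completed the set. At 5 h with BMP4, PKDCC stood at 39.4 CPM against 157 untreated, and the others of the 15 stood at no more than 3.27 CPM with BMP4.

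Rates were set beside those of the neighbouring steps, which share the 20 h or the 28 h library. Among genes that moved one way from 12 h to 42 h, the 8 in each direction whose step rate most exceeded both neighbours were taken. ALDH1A2 changed by 0.241 log2 units per hour from 12 h to 20 h, 0.498 from 20 h to 28 h and 0.244 from 28 h to 42 h. ADAMTS9 was flat before (0.00827 per hour), then changed by 0.375 and 0.214. PKDCC had 0.171, 0.418 and 0.106 per hour.

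In the falling set FOXD3 had -0.0773, -0.292 and -0.206 log2 units per hour over the same 3 steps, and IQSEC2 had -0.1, -0.235 and -0.141. ZFP36L2, which destabilizes mRNAs, N4BP3 and the symbol-less ENSG00000280441 were lower in the middle step (log2 -1.3, -1.04 and -1.28) but did not pass the edgeR test, and MON1A, at log2 -0.57, was not past 2-fold. The core factors were not in this set. NANOG had -0.148, -0.225 and -0.25 per hour and SOX2 -1.25 over the 8 h after -0.57 over the 8 h before and before -2.43 over the 14 h after. NANOG and SOX2 thus went down no slower per hour after 28 h. The step made up 26% of the log2 change of NANOG from the 0 h mean to 42 h and 24.8% of that of SOX2, 19.1% of that of ISL1, 11.2% of that of HAND1 and 33.1% of that of KRT7.

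**Figure D4:**
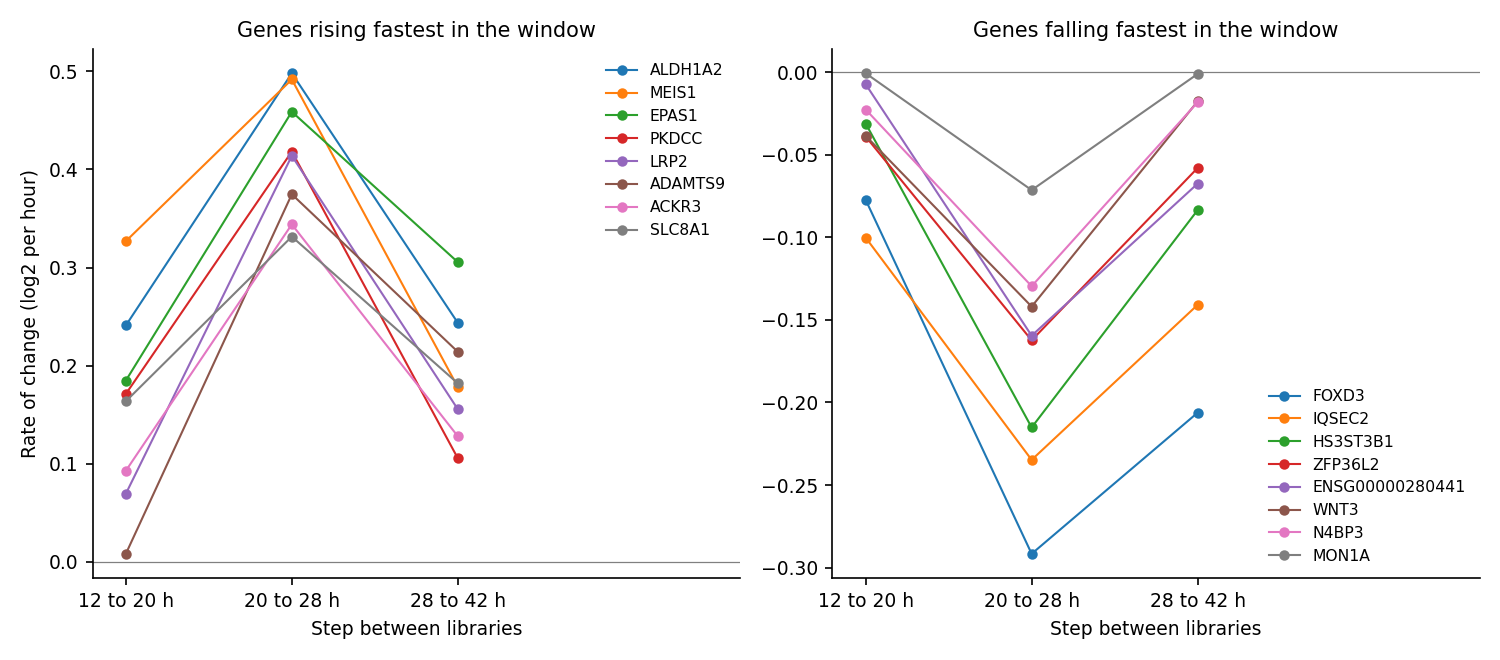
Rate of change in log2 units per hour for 3 successive steps, for the 8 genes rising and the 8 falling fastest in the middle step; these genes were chosen for that peak. ALDH1A2 reaches 0.498 per hour and FOXD3 -0.292 per hour between 20 h and 28 h, with single libraries at every time and no error bars.

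The 15 largest falls among genes with at least 10 CPM at 20 h again were chosen by size. Their top places were held by 3 lncRNA entries of chromosome 21 without a symbol, ENSG00000280614, ENSG00000280800 and ENSG00000281181, with the same counts in every library, 20.9 CPM at 20 h and 0 at 28 h. The 0 h libraries of these entries also differed, at 11.8 and 2.45 CPM, and reads shared between them make their levels uncertain. ZIC2, FOXD3, NANOG and SPRED3 were among the others, with genes outside the pluripotency and FGF lists.

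ZIC5, the neighbour of ZIC2 on chromosome 13, fell from 56 to 17.3 CPM (log2 -1.69, edgeR adjusted p = 0.00398). ADCYAP1R1, the PACAP receptor, went from 23.8 to 8.17 (log2 -1.54) and the lncRNA MIAT from 78.9 to 27.6 (log2 -1.52). ADCYAP1R1 and MIAT had been highest at 4 h, at 71 and 397 CPM.

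Further falls followed an earlier increase. IQSEC2, an exchange factor for ARF GTPases (chrX:53225828-53321350), was at 57 and 51 CPM in the 0 h pair, and at 169, 342, 196, 53.3 and 13.6 CPM in the libraries of 4, 12, 20, 28 and 42 h. It had thus returned to its 0 h level at 28 h, a 3.68-fold fall from 20 h (log2 -1.88, edgeR adjusted p = 8.03e-04). NKX3-2, a homeobox repressor, was at 0.0263 and 0.0841 CPM in the 0 h pair, and at 1.72, 8.42, 15.8, 4.87 and 1.11 CPM in the libraries of 4, 12, 20, 28 and 42 h, with its peak at 20 h (log2 -1.7 in the step, edgeR adjusted p = 0.014). HS3ST3B1, a heparan sulfate sulfotransferase, peaked at 43.1 CPM at 12 h and fell from 36.3 to 11 (log2 -1.72, edgeR adjusted p = 9.30e-04). FMN2, an actin-nucleating formin, fell from 23.1 to 8.02 CPM (log2 -1.52, edgeR adjusted p = 0.00603) after 6.48 and 5.02 at 0 h.

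The dose response at 5 h shares no library with the step, and was made from poly(A) RNA with another extraction kit, so that levels are compared only within it. Of the 235 lower genes 200 averaged at least 1 CPM there over the untreated and 0 nM libraries. Of these 41 (20.5%) were at least 2-fold higher with BMP4 and IWP2 than untreated, against 6.26% of all 14303 genes tested in both, and 10 (5.0%) were lower, against 1.56%. Of the 314 higher genes 161 were measured, 23 (14.3%) being higher and 20 (12.4%) lower at 5 h. Both sets thus held larger shares than all tested genes in both directions at 5 h, and the genes lower at 28 h were more often higher than lower at 5 h, as were all tested genes.

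The 41 genes that were higher at 5 h and lower at 28 h were all above both 0 h libraries at 4 h or 12 h, as were 832 of the 896 tested genes that were higher at 5 h (92.9%). Of the 41 genes 24 (58.5%) went up at every step from untreated through 300, 100, 30 and 10 to 0 nM of the inhibitor. Of all tested genes higher at 5 h, 348 of 896 (38.8%) did. With 1 library a dose these shares were not tested. The chromosome 21 entries ENSG00000286149, ENSG00000286155 and ENSG00000286267 held the same values in every library, and each was counted in the 41 and the 24. IQSEC2 was at 51.3 CPM untreated and 68.4, 99.6, 134, 158 and 181 CPM at 300, 100, 30, 10 and 0 nM LDN-193189. NKX3-2 was at 0.128 CPM untreated and 0.332, 0.579, 1.51, 3.24 and 3.55 CPM at 300, 100, 30, 10 and 0 nM LDN-193189. The order of both followed the dose without exception, as it did for FGF4, CFC1, INHBB, WNT3, FMN2 and HS3ST3B1.

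BAHCC1, a chromatin protein gene, and CBLN1, a secreted synaptic organizer, were named after their values were seen, from those with large ratios at 5 h. BAHCC1 was at 0.32 CPM untreated and 57 with BMP4 at 5 h, and went from 147 to 73.2 CPM in the step (log2 -1.01, edgeR adjusted p = 0.382). CBLN1 was at 5.13 and 85.1 CPM at 5 h, and at 27.6 and 12.7 in the step (log2 -1.12, edgeR adjusted p = 0.156). By contrast SOX2 was at 348 and 338 CPM and NANOG at 129 and 90.6 at 5 h, with no early increase.

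**Figure D5:**
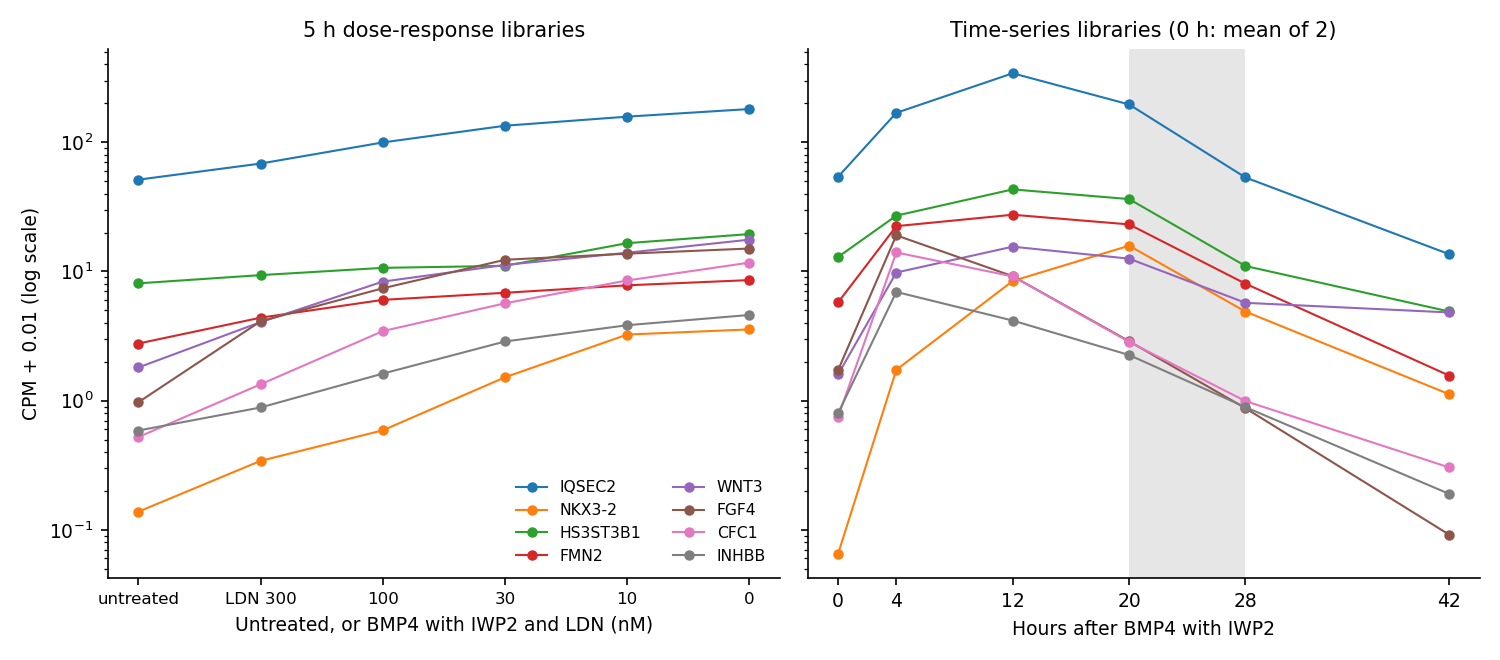
CPM plus 0.01 on log axes for 8 genes that were higher with BMP4 at 5 h and lower at 28 h than at 20 h: left, the 6 dose-response libraries in order of falling inhibitor; right, the time series with the step shaded. Every line goes up to the right in the left panel and down across the shaded step; IQSEC2 goes from 51.3 to 181 CPM on the left and from 196 to 53.3 on the right.

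The time series offers further comparisons. Those of 0 h with 42 h, of 4 h with 12 h, and of 4 h or 12 h with the 0 h pair use no library of the step. From the 0 h mean to 42 h, 269 of 299 measured higher genes (90.0%) were at least 2-fold higher, against 12.4% of 15098 genes tested in both, and 159 of 182 lower genes (87.4%) were lower, against 18.4%. From 4 h to 12 h, 29 of 198 higher genes (14.6%) were already higher, against 1.66% of 15357 genes, and 22 of 227 lower genes (9.69%) already lower, against 1.24%. At 4 h or 12 h, 160 of the 235 lower genes (68.1%) and 202 of the 314 higher genes (64.3%) were above both 0 h libraries, against 51.7% of all 15744 tested genes. The 20 h and 28 h levels themselves were used to choose the genes, so that their place against the 0 h pair is a description only. The 28 h library was above both 0 h libraries in 297 of the higher genes (94.6%), against 36.7% of all tested genes. It was below both in 172 of the lower genes (73.2%), against 42.3% of all tested genes. The 20 h library was no higher than the upper 0 h library in 79 of the higher genes (25.2%), IGFBP3, TNC and GABRP among them, against 60.1% of all tested genes.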

How the data were processed

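The count tables that the authors deposited cover 7 time-series and 6 dose-response libraries of RNA-seq. By the study's methods, adapters were removed by Cutadapt, STAR 2.7.8a aligned the reads to GRCh38, and RSEM 1.3.3 gave the counts; the annotation release is not given in the sources used here. The deposited expected counts per gene were whole numbers and were not scaled. The deposited FPKM values of the time series, scaled by the authors for length and depth, served as an alternative and for levels between genes; those of the dose response were not used. Time-series RNA was depleted of ribosomal RNA, and dose-response RNA was poly(A)-selected.

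CPM was computed on each library total, which includes 5 non-human features, and 0.01 CPM was added before log2. Genes averaging at least 1 CPM over the 20 h and 28 h libraries were tested. A design with each time as a group was fitted to the 7 libraries with edgeR 4.0.16 (TMM, quasi-likelihood test, Benjamini-Hochberg adjustment at 0.05); its error rests on the 0 h pair. DESeq2 1.42.0 was the alternative. The fit was tested on simulated data. R 4.3.3, Python 3.11.15, pandas 2.3.3, numpy 2.4.6, scipy 1.17.1 and matplotlib 3.10.9 were used. Gene positions are from GENCODE release 44.

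The step, the 30 gene lists (562 genes) and the tests were chosen with earlier results of these data known. Named were all core and late amnion-linked members, the 4 largest of each other list averaging 1 CPM or more, the 15 largest rises and falls with at least 10 CPM in the higher library, and the 8 genes in each direction fastest in the step. Of the genes so named, 2 are left out and are not reported here. Other list members are given as examples of their list. Totals ranged from 37957385 to 71333471 counts in the time series and from 15600931 to 33989998 in the dose response.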

Additional observations from a re-analysis of the deposited data

Results flagged for a closer look

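Reads on the egfp sequence, a feature of the tables that no comparison used, numbered 1647 counts in the 20 h library and 1321 in the 28 h library, above the 3 counts taken as the floor; every library of the time series held them, at 22.4 to 30.0 CPM, and every cell carried the GFP::SMAD4 fusion.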

How the results depend on the processing

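Counts of genes called by fold were the least stable results. The 314 higher and 235 lower genes became 117 and 67 among genes averaging at least 10 CPM, 2023 and 2197 with no filter beyond a count above 3, 205 and 96 with 1 CPM added, 872 and 1098 at a fold of 1.5, and 118 and 38 at a fold of 3; in FPKM they became 331 and 380, of which 206 and 148 were among the 314 and 235. TMM gave 332 and 213, DESeq2 size factors 345 and 200, 0.1 CPM added 304 and 215. Chosen after seeing the data, totals without mitochondrial genes gave 320 and 236, and protein-coding genes alone 281 and 167. The edgeR counts of 139 and 38 became 66 and 16 with at least 10 CPM, 81 and 18 with DESeq2, and 2149 and 1985 for a linear term over the libraries of 12 h to 42 h, which asks about a trend and not about the step. At a fold of 1.5, the genes higher at 28 h were 21.7% higher and 22.4% lower at 5 h, and the genes lower at 28 h were 31.0% higher and 17.5% lower, against 15.7% and 5.12% of all tested genes. List medians moved by less than 0.450 log2 units, the SD of the log2 ratio of the 0 h pair, in 119 of 120 recomputations; that of the HOX list, 1 gene, became 1.02 with 1 CPM added. Of 155 named genes 31 moved by more than that SD, 29 with 1 CPM added, and ALDH1A3 reversed to log2 -0.36 in FPKM. Leaving out either 0 h library gave shares of the change from 0 h to 42 h of 24.7% to 24.9% for SOX2, 25.5% to 26.7% for NANOG, 18.0% to 20.0% for ISL1, 10.7% to 11.6% for HAND1 and 31.4% to 34.6% for KRT7. Without a 0 h replicate the edgeR test could not be fitted, since no residual degrees of freedom were left. No paired analysis was possible because only 0 h has replicate numbers, so that the groups compared share fewer than 2. Rare transcripts are limited by depth: 3 counts are 0.0495 and 0.0508 CPM in the 2 libraries.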
